A study of Mus musculus with 6 samples.

Results

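Lipoprotein lipase and 8 adipogenic genes (Lpl, Pparg, Cebpa, Cebpb, Cebpd, Fabp4, Cd36, Scd1 and Pnpla2) were followed in murine embryonic fibroblasts (MEF) lacking TIA1 or TIAR. These 9 genes were found by the gene name given for each probe and had 10 probes, 2 of them for Lpl, of the 55681 probes and 34797 gene names on the array. Lpl was chosen because it was among the largest increases in TIAR KO MEF, so all values of the genes in TIAR KO MEF are given as a description, without a test. The values of TIA1 KO MEF did not enter that rule and were tested against WT MEF, but both comparisons share the WT arrays and the genes were chosen with earlier results of these data known. TIA1 and TIAR are RNA-binding proteins that act in pre-mRNA splicing and in mRNA translation and stability.

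Immortalized MEF of 3 groups were profiled as total RNA on 6 arrays of 1 slide, with 2 independent replicates per group and a single dye. WT MEF carried the wild-type genotype and are labelled with strain background W4, TIA1 KO MEF lacked TIA1 and are labelled BALB/c, and TIAR KO MEF lacked TIAR and are labelled C57BL/6. No group was treated. Since each genotype came with its own strain and its own immortalized cells, these cannot be told apart, and neither can loss of TIA1 and position on the slide, because both TIA1 KO arrays lay in another row. Whether a line was a single clone is not given in the sources used here. In RNA from a whole culture, more cells of one kind and more RNA per cell cannot be told apart.

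The label of the TIA1 KO arrays was checked with the brightest probe of Tia1, which read 10.72 and 8.54 (normalized log2 intensity) on the WT and 7.87 and 8.44 on the TIA1 KO arrays, a difference that did not pass (limma adjusted p = 0.288). The second Tia1 probe read 9.56 and 9.90 on the WT and 7.57 and 8.65 on the TIA1 KO arrays (limma adjusted p = 0.116), and the third, near background in WT MEF, ran the other way, by 0.87 (limma adjusted p = 0.149). For TIAR, encoded by Tial1, the brightest probe read 13.22 on the 1 WT array whose spot was kept and 9.57 and 11.60 on the TIAR KO arrays, and did not pass (limma adjusted p = 0.200). Its second probe read 11.71 and 11.09 on the WT and 10.00 and 9.65 on the TIAR KO arrays. This probe fell 2.99-fold (limma adjusted p = 0.0254), and was well above background on both TIAR KO arrays, whereas each Tia1 probe was so on 1 of the 2 TIA1 KO arrays. Where these probes lie relative to the disrupted part of each gene was not analysed here.

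Adipogenesis is driven by a cascade of transcription factors. Cebpb and Cebpd encode C/EBPβ and C/EBPδ, which act early and induce Pparg and Cebpa, and PPARγ and C/EBPα then switch on the genes of lipid uptake and storage. Lipoprotein lipase, the product of Lpl, hydrolyses the triglycerides of circulating lipoproteins, and is known as an early marker of the adipocyte lineage. CD36 takes up the released fatty acids, FABP4 carries them in the cytoplasm, SCD1 desaturates them, and PNPLA2 (ATGL) starts the hydrolysis of stored triglycerides.

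Pparg passed the test in TIA1 KO MEF, and its transcripts begin at several places. The most upstream and the most downstream of its 3 promoter windows in RefSeq (GRCm38.p6, forward strand, 300 bases each, from 250 bases before a start to 50 after it) are therefore shown, with motif matches in capitals.
Pparg, upstream start, chr6:115360894-115361193: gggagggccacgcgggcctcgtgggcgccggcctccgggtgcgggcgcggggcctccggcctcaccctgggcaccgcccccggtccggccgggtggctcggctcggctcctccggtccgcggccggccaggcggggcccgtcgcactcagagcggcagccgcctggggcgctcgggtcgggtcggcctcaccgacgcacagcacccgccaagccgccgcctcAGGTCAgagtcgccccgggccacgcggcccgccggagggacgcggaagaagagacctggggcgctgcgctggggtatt
Pparg, downstream start, chr6:115421816-115422115: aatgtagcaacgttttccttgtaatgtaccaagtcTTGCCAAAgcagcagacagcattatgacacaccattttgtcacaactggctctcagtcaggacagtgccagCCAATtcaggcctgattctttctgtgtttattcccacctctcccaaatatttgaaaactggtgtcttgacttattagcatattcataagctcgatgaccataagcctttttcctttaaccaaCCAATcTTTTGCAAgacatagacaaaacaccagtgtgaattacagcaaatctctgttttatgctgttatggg
The capitals in the upstream window mark AGGTCA, the core element of many nuclear receptors, which is found in 16.26% of the 32851 promoter windows of the table. Those in the downstream window mark CCAAT on the forward strand at 2 places (37.41% of windows) and the C/EBP-type motif TTGCNNAA at 2 places, as TTGCCAAA on the forward strand and as TTTTGCAA on the reverse strand (10.8% of windows). Both strands were searched for these 3 motifs, for TATAAA (13.62% of windows) and for a direct repeat of AGGTCA with 1 base between the copies (0.03957% of windows), every match of which also counts as AGGTCA. Of the 9 genes, 5 had a window in the table, 7 windows in all, and only the downstream Pparg window among them held TTGCNNAA. A match of letters is a description and was not tested for binding.

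Pparg changed most in TIA1 KO MEF. Its probe (chromosome 6, 115440213 to 115440272 of mm9, the build of all probe positions, 10 spots per array) read 8.15 and 8.30 on the WT, 12.27 and 12.43 on the TIA1 KO and 10.19 and 10.50 on the TIAR KO arrays. These groups did not overlap, with WT lowest and TIA1 KO highest, and the probe was well above background on every array. The difference of TIA1 KO from WT MEF was 4.13 ± 0.16 on the log2 scale (standard error, n = 2 arrays per group, as for all differences below), a 17.5-fold increase (limma adjusted p = 0.00485). TIAR KO MEF were 2.12 ± 0.17 above WT (4.35-fold) and 2.01 ± 0.19 below TIA1 KO MEF. The increase in TIA1 KO MEF was 4.05 without WT replicate 1 and 4.21 without WT replicate 2. The spread then came from the TIA1 KO pair alone, with the lone WT array assumed to vary like it, and no probe of the whole array passed. With the spread taken from both knockouts instead, Pparg passed without either WT array (limma adjusted p = 0.0147 and 0.0132). The increase was 2.97 when array medians were set equal, and still passed. With the scanner software's processed intensities it was 4.82 and did not pass (limma adjusted p = 0.0529).

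**Figure D1:**
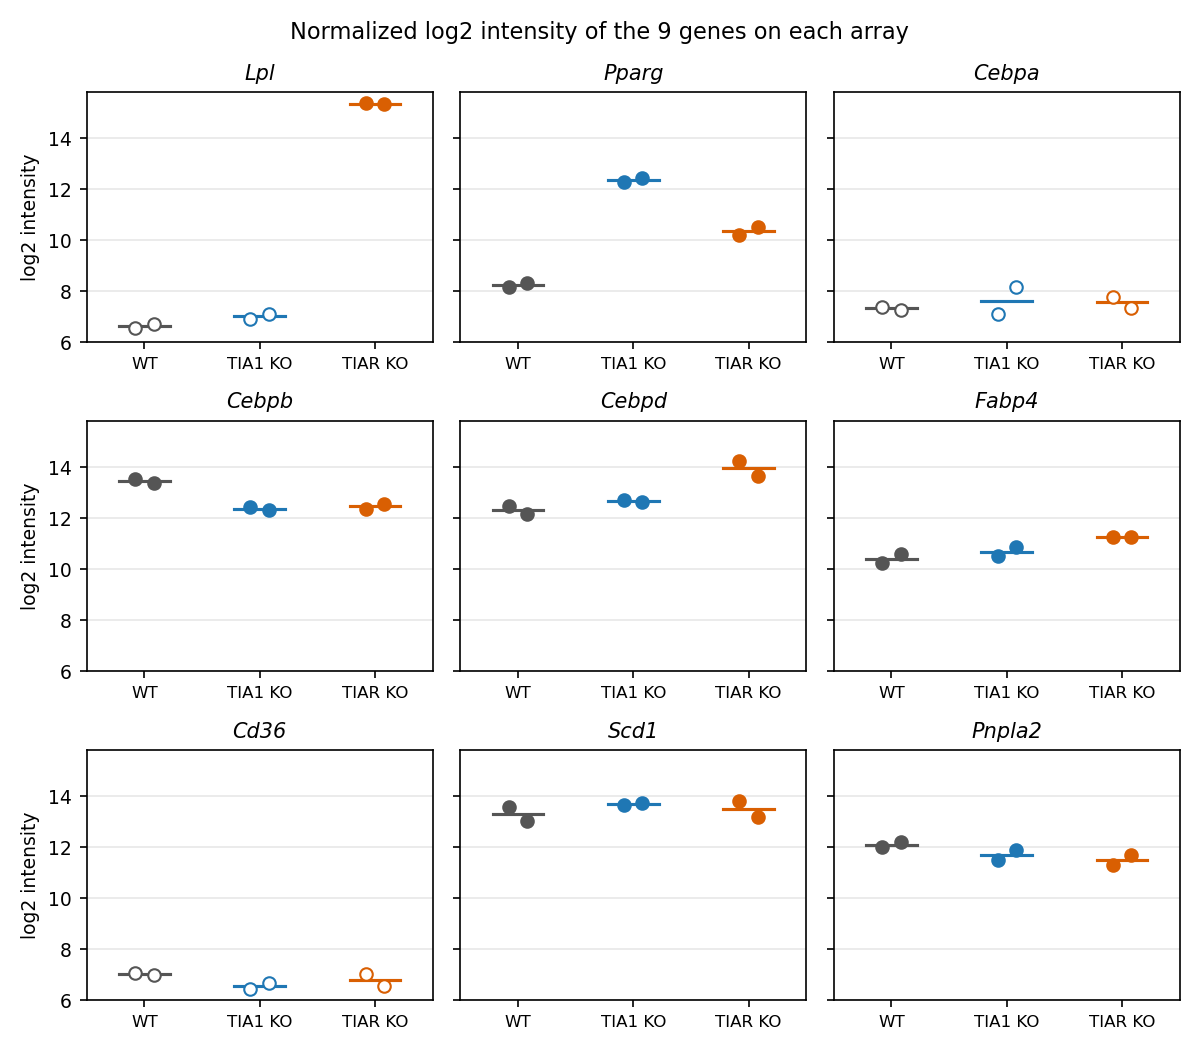
Normalized log2 intensity (vertical axis) of the brightest probe of each gene on each of the 2 arrays per group (horizontal axis). Points are arrays, bars are group means, and open points mark groups in which the probe was not well above background on both arrays. Lpl stands at 15.36 and 15.32 in TIAR KO MEF and at or below 7.12 elsewhere, while Pparg forms 3 separate levels.

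None of the 3 C/EBP genes passed the test in TIA1 KO MEF. Cebpb (chromosome 2, 167515828 to 167515887) read 13.52 and 13.37 on the WT, 12.42 and 12.33 on the TIA1 KO and 12.35 and 12.57 on the TIAR KO arrays. Both knockouts lay below both WT arrays and overlapped each other. The difference of TIA1 KO from WT MEF was −1.07 ± 0.16 (limma adjusted p = 0.0520), just outside the threshold of 0.05, and it passed in 6 of the alternative analyses. TIAR KO MEF differed from WT by −0.98 ± 0.16, a 1.97-fold lower intensity.

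Cebpd (chromosome 16, 15888459 to 15888518) read 12.47 and 12.18 on the WT, 12.72 and 12.63 on the TIA1 KO and 14.25 and 13.65 on the TIAR KO arrays. TIAR KO was the highest group, 1.63 ± 0.25 above WT (3.09-fold). TIA1 KO differed from WT MEF by 0.35 ± 0.18 (limma adjusted p = 0.270), and by −1.24 with equal array medians, which passed (limma adjusted p = 0.0366). Cebpa (chromosome 7, 35906517 to 35906576), which marks the later phase of adipogenesis, was near background: it was well above background on none of the WT arrays and on 1 array of each knockout, and read between 7.08 and 8.14 on the 6 arrays. Its groups overlapped, and TIA1 KO differed from WT MEF by 0.30 ± 0.39 (limma adjusted p = 0.634).

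Lpl was expressed far above background in TIAR KO MEF. Its brightest probe (chromosome 8, 71430267 to 71430326) read 6.56 and 6.71 on the WT, 6.91 and 7.12 on the TIA1 KO and 15.36 and 15.32 on the TIAR KO arrays. It was not well above background on any WT or TIA1 KO array, so that only a lower limit of the change can be given. Setting each array of the dimmer group to the lowest signal rated well above background there, or to the probe's own signal where higher, TIAR KO MEF had at least 337-fold more signal than WT MEF and at least 218-fold more than TIA1 KO MEF. The measured difference from WT, 8.70 ± 0.14, includes WT signals at background.

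A second Lpl probe (71425050 to 71425109) read 6.35 and 6.38 on the WT, 7.92 and 8.41 on the TIA1 KO and 12.58 and 12.92 on the TIAR KO arrays. It was also brightest in TIAR KO MEF, at least 58.1-fold above WT. The 2 probes disagreed in TIA1 KO MEF. The brighter one differed from WT by 0.37 ± 0.17 (95% confidence interval −0.09 to 0.84, limma adjusted p = 0.236), a difference that became −0.41 without the loess step and −0.46 in the authors' log2 table. The second one was well above background on 1 of the 2 TIA1 KO arrays and differed by 1.80 ± 0.22 (limma adjusted p = 0.0383), at least 2.42-fold.

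None of the genes of fatty acid handling passed the test in TIA1 KO MEF. Fabp4 (chromosome 3, 10204452 to 10204511) read 10.22 and 10.59 on the WT, 10.50 and 10.87 on the TIA1 KO and 11.25 and 11.25 on the TIAR KO arrays. Only TIAR KO MEF stood above both WT arrays, by 0.84 ± 0.18 (1.79-fold), and TIA1 KO differed from WT by 0.28 ± 0.23 (limma adjusted p = 0.456). Cd36 (chromosome 5, 17288600 to 17288659) was not well above background on any of the 6 arrays, which read between 6.44 and 7.04. The test of TIA1 KO against WT MEF gave −0.46 ± 0.17 for Cd36 (limma adjusted p = 0.177), and no fold is given between signals near background.

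Scd1 (chromosome 19, 44469387 to 44469446) read 13.58 and 13.02 on the WT, 13.64 and 13.73 on the TIA1 KO and 13.81 and 13.17 on the TIAR KO arrays. TIAR KO and WT overlapped, and TIA1 KO differed from WT by 0.39 ± 0.24 (limma adjusted p = 0.346). Pnpla2 (chromosome 7, 148645928 to 148645987) read 12.01 and 12.19 on the WT, 11.51 and 11.87 on the TIA1 KO and 11.30 and 11.71 on the TIAR KO arrays. Both knockouts read below both WT arrays, TIAR KO by 0.59 ± 0.19 in the mean, and the difference of TIA1 KO was −0.41 ± 0.20 (limma adjusted p = 0.263). With equal array medians the TIA1 KO differences of Scd1 (−1.21) and Pnpla2 (−1.96) passed, and that of Fabp4 (−1.12) did not.

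Of the 9 genes, read from the brightest probe of each, 1 (Pparg) passed both thresholds in TIA1 KO MEF (a fold change above 2 at an adjusted p below 0.05), where 3.54% of all probes passed, 2.18% upward and 1.36% downward. The median difference of the 9 genes was 0.30, and that of all probes −0.09. In TIAR KO MEF 3 of the 9 genes (Lpl, Pparg and Cebpd) were more than 2-fold above WT, and the medians were 0.24 and −0.02. The same 3 met both thresholds, whereas with equal array medians Lpl and Pparg met them upward and Cebpb and Pnpla2 downward. This describes genes chosen on the same comparison and is no test of them. Of all probes, 5.76% passed both thresholds in TIAR KO MEF, 3.39% upward and 2.37% downward. With equal array medians 4179 of all probes passed there, 33.6% of them upward. Between the knockouts 3.35% of all probes passed (1.72% higher in TIAR KO and 1.63% lower), but none without either TIAR KO array. The comparisons with WT share the WT arrays.

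The values of the groups were also compared array by array. In TIA1 KO MEF 4 of the 9 genes read above both WT arrays and 3 below them, where 26.0% and 39.2% of all probes did so. The corresponding counts for TIAR KO MEF were 4 and 2, beside 21.9% and 27.0% of all probes.

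**Figure D2:**
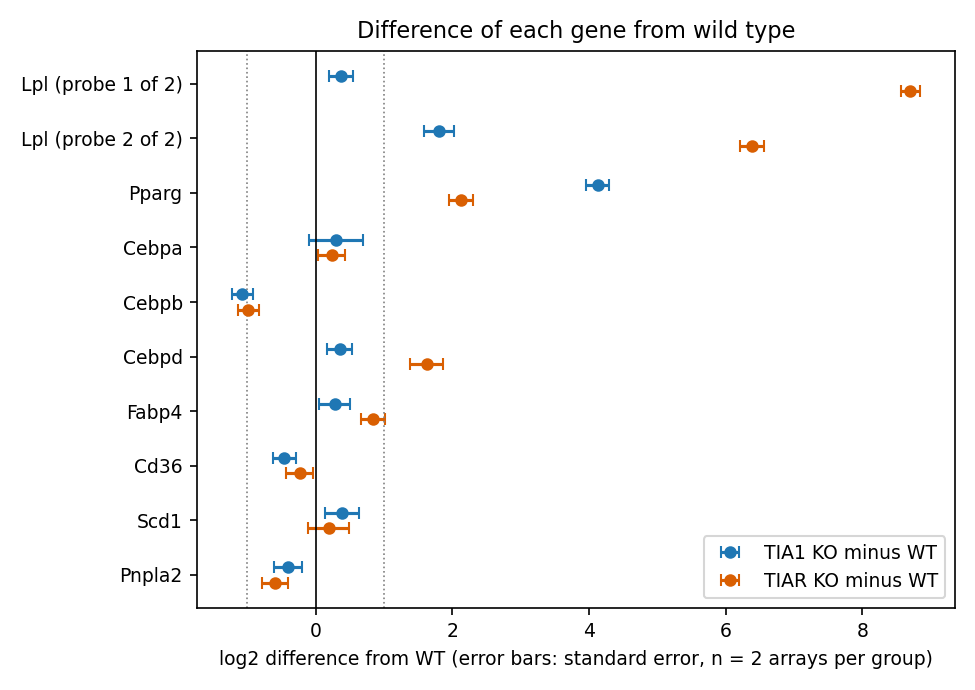
Log2 difference from WT MEF (horizontal axis) of the 10 probes of the 9 genes (vertical axis) in TIA1 KO MEF (blue) and TIAR KO MEF (orange), with standard errors from 2 arrays per group. Dotted lines mark a change of 2-fold; Lpl lies farthest right in TIAR KO MEF (8.70) and Pparg in TIA1 KO MEF (4.13).

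Genes of lipase partners and lipoprotein receptors were examined next, a list that also holds Lipa. Of 20 such genes, 3 rose in TIA1 KO cells and 5 in TIAR KO cells, where 2.18% and 3.39% of all probes rose, and none fell, where 1.36% and 2.37% did. Among the brightest probes of 35019 genes, 2.87% rose and 1.62% fell for TIA1 KO, against 4.35% and 2.81% for TIAR KO. Of those well above background on both arrays of a group compared, 4.94% rose and 3.30% fell for TIA1 KO, against 8.31% and 5.37% for TIAR KO. These shares apply to the count of every list that follows. Vldlr, which encodes a receptor that takes up triglyceride-rich lipoproteins, read 9.47 and 8.74 on the WT, 12.02 and 11.99 on the TIA1 KO and 13.04 and 12.65 on the TIAR KO arrays. It rose 7.50-fold in TIA1 KO MEF (limma adjusted p = 0.0251) and 13.4-fold in TIAR KO MEF (limma adjusted p = 0.00225). A dimmer Vldlr probe rose in TIAR KO MEF and did not pass in TIA1 KO MEF (limma adjusted p = 0.134).

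Lipa, the gene of lysosomal acid lipase, read 9.78 and 9.87 on the WT, 12.77 and 12.63 on the TIA1 KO and 11.81 and 11.83 on the TIAR KO arrays. It rose 7.34-fold (limma adjusted p = 0.00755) and 3.99-fold (limma adjusted p = 0.00163). Lmf1, a maturation factor that folds lipoprotein lipase in the endoplasmic reticulum, rose 2.25-fold in TIAR KO MEF, from 12.19 and 12.20 to 13.31 and 13.42 (limma adjusted p = 0.00979), and read 12.76 and 12.86 in TIA1 KO MEF (limma adjusted p = 0.108). It lies outside the rule for named genes and was chosen after its values were seen.

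Angptl4, which encodes an inhibitor of the lipase, read 8.45 and 8.63 on the WT, 9.67 and 10.30 on the TIA1 KO and 10.00 and 9.65 on the TIAR KO arrays. It rose 2.44-fold in TIAR KO MEF (limma adjusted p = 0.0164), and its difference in TIA1 KO MEF, 1.44 ± 0.27, did not pass (limma adjusted p = 0.0783). Sort1, the gene of the sorting receptor sortilin, rose 6.86-fold in TIAR KO MEF, from 7.60 and 7.74 to 10.73 and 10.17 (limma adjusted p = 0.00257). One of its other probes rose as well and the remaining one did not pass (limma adjusted p = 0.710). Lrp1, an endocytic receptor for lipoprotein remnants, rose 2.53-fold in TIA1 KO MEF (13.48 and 13.38 to 14.89 and 14.64, limma adjusted p = 0.0414), and neither of its dimmer probes passed. Gpihbp1, which holds the lipase on capillary endothelium, was also named after its values were seen and read between 6.86 and 8.20 on the 6 arrays, with no call.

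Among 12 genes of fatty acid uptake and activation, 3 rose and 1 fell in the TIA1 knockout, and 1 rose and 1 fell in the TIAR knockout. Fabp7, the fatty acid-binding protein of brain, was the one that rose in TIAR KO MEF. It read 6.29 and 6.48 on the WT, 7.66 and 7.66 on the TIA1 KO and 13.52 and 13.82 on the TIAR KO arrays, and the first 4 of these readings were not well above background. The increase in TIAR KO MEF was at least 110-fold (limma adjusted p = 0.000176). Fabp7 also passed in TIA1 KO MEF, with both groups near background.

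The fatty acid transport genes Slc27a1 and Slc27a3 differed in direction. Slc27a1 read 11.16 and 11.60 on the WT and 9.69 and 9.62 on the TIA1 KO arrays, a 3.30-fold fall (limma adjusted p = 0.0374). Slc27a3 read 10.57 and 10.68 on the WT, 12.21 and 12.27 on the TIA1 KO and 8.84 and 9.06 on the TIAR KO arrays. It rose 3.05-fold in TIA1 KO MEF (limma adjusted p = 0.0228) and fell 3.20-fold in TIAR KO MEF (limma adjusted p = 0.00420). Fabp3, the heart-type binding protein, rose 3.96-fold in TIA1 KO MEF (7.82 and 7.58 to 9.38 and 9.99, limma adjusted p = 0.0448), and a second probe did not pass (limma adjusted p = 0.437).

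Triglyceride and fatty acid synthesis was represented by 23 genes, of which 2 rose and 1 fell in the TIA1 knockout and 1 rose and 1 fell in the TIAR knockout. Dgat2, which catalyses the last step of triglyceride synthesis, was the gene that fell in each. It read 14.82 and 13.98 on the WT, 11.68 and 11.49 on the TIA1 KO and 11.71 and 11.61 on the TIAR KO arrays. Dgat2 fell 7.03-fold in the TIA1 knockout (limma adjusted p = 0.0348) and 6.66-fold in TIAR KO MEF (limma adjusted p = 0.00644).

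The genes that rose encode desaturases. Fads2 rose 2.47-fold (11.66 and 11.59 to 12.82 and 13.03, limma adjusted p = 0.0397) and Fads1 2.17-fold (13.68 and 13.62 to 14.71 and 14.82, limma adjusted p = 0.0453) in TIA1 KO MEF, with a dimmer Fads2 probe that did not pass there. In TIAR KO MEF Fads2 was 0.99 above WT, under 2-fold, and its dimmer probe passed (1.15, limma adjusted p = 0.0408). Scd2, a close relative of Scd1, rose 2.15-fold in TIAR KO MEF (16.64 and 16.46 to 17.62 and 17.69, limma adjusted p = 0.0141). It read 17.50 and 17.61 in TIA1 KO MEF, 1.01 above WT, and did not pass (limma adjusted p = 0.0619).

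Of 19 genes of lipolysis and the lipid droplet, 2 rose in the TIA1 knockout, 1 in the TIAR knockout, and none fell. Plin4, which coats nascent droplets, read 10.32 and 10.21 on the WT, 11.66 and 11.49 on the TIA1 KO and 12.96 and 12.93 on the TIAR KO arrays. It rose 2.48-fold (limma adjusted p = 0.0384) and 6.43-fold (limma adjusted p = 0.000707). Plin2, a droplet coat protein of many cell types, read 14.71 and 14.75 on the WT, 16.40 and 16.54 on the TIA1 KO and 14.56 and 14.65 on the TIAR KO arrays. It rose 3.34-fold in TIA1 KO MEF (limma adjusted p = 0.0201) and differed by −0.13 ± 0.14 in TIAR KO MEF (limma adjusted p = 0.715).

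**Figure D3:**
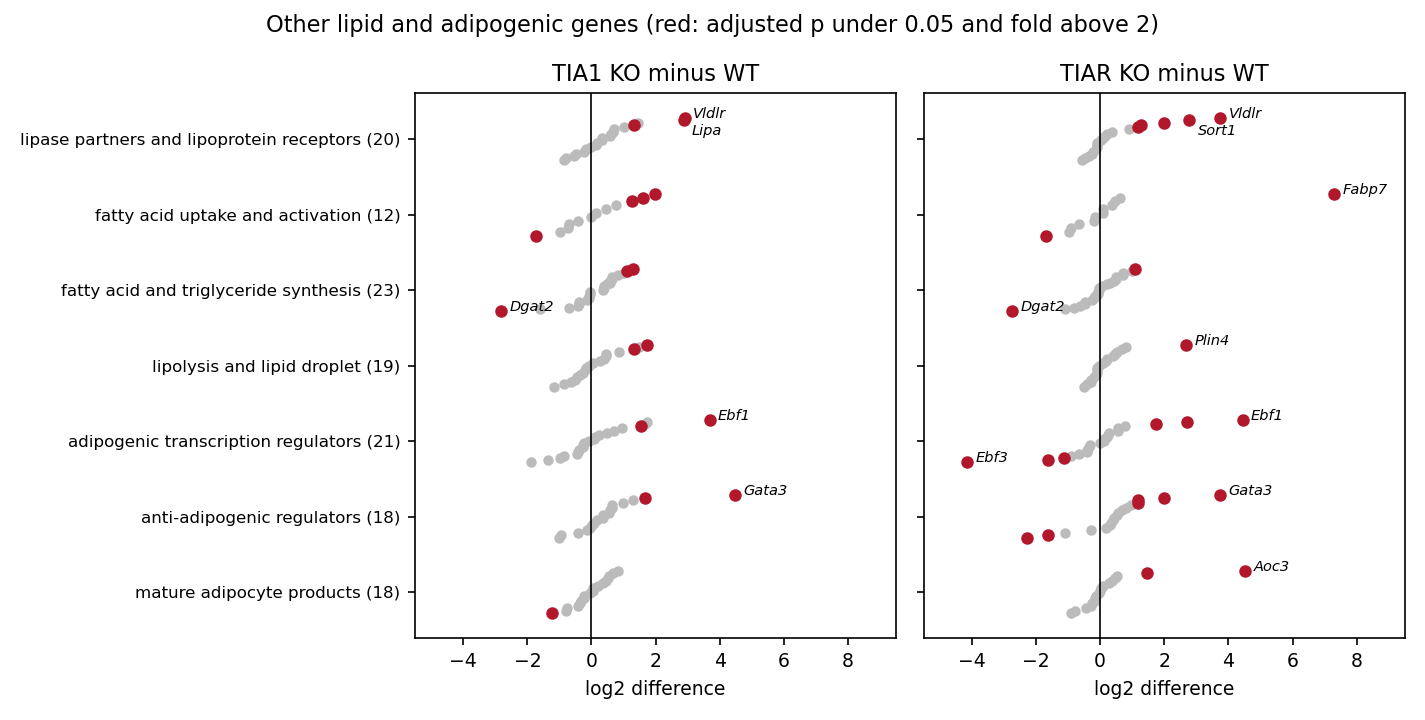
Log2 difference from WT MEF (horizontal axis) of each gene of 7 lists (vertical axis, with the number of genes in brackets) in TIA1 KO MEF (left) and TIAR KO MEF (right). Each point is the brightest probe of a gene, red points passed both thresholds, and most points of each list are grey and lie around 0.

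Further regulators of adipogenesis changed in both directions. Of 21 transcription regulators that promote it, TIA1 KO MEF had 2 that rose and none that fell, and TIAR KO MEF 3 that rose and 3 that fell. Ebf1, an early B-cell factor that acts upstream of Pparg and Cebpa, read 6.36 and 6.47 on the WT, 10.02 and 10.19 on the TIA1 KO and 10.88 and 10.84 on the TIAR KO arrays. It was near background in WT MEF and rose at least 9.30-fold (limma adjusted p = 0.00543) and at least 15.7-fold (limma adjusted p = 0.000221). Its relative Ebf3 read 12.22 and 12.03 on the WT, 12.15 and 11.96 on the TIA1 KO and 7.98 and 7.97 on the TIAR KO arrays, a 17.7-fold fall in TIAR KO MEF (limma adjusted p = 0.000291).

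Klf4, an early Krüppel-like factor, rose 2.92-fold in TIA1 KO MEF, from 10.80 and 10.95 to 12.39 and 12.45 (limma adjusted p = 0.0256). Zfp467 rose 6.55-fold in TIAR KO MEF, from 8.05 and 8.26 to 10.94 and 10.79 (limma adjusted p = 0.000964), and its other 3 probes rose there too. Ppargc1a, the gene of a PPARγ coactivator, rose at least 2.75-fold in TIAR KO MEF from near background in WT (limma adjusted p = 0.00283), with a dimmer probe that did not pass. The other 2 regulators that fell in TIAR KO MEF, named after their values were seen, were Nr1h3, which encodes the liver X receptor alpha (3.07-fold, limma adjusted p = 0.00722), and Klf5 (2.19-fold, limma adjusted p = 0.0377).

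Among 18 regulators that restrain adipogenesis, TIA1 KO MEF had 2 that rose, and TIAR KO MEF 4 that rose and 2 that fell. Gata3, a zinc finger factor that represses Pparg, rose in both knockouts. It read 7.68 and 7.81 on the WT, 12.15 and 12.32 on the TIA1 KO and 11.40 and 11.57 on the TIAR KO arrays. Gata3 rose 22.4-fold (limma adjusted p = 0.00418) and 13.3-fold (limma adjusted p = 0.000367).

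Wnt10b, a secreted ligand that blocks adipogenesis, read 9.47 and 8.95 on the WT, 10.82 and 10.93 on the TIA1 KO and 6.96 and 6.88 on the TIAR KO arrays. It rose 3.18-fold in TIA1 KO MEF (limma adjusted p = 0.0470) and fell at least 4.37-fold, to near background, in TIAR KO MEF (limma adjusted p = 0.00390). Klf2 fell 3.06-fold in TIAR KO MEF, from 10.35 and 10.51 to 9.11 and 8.52 (limma adjusted p = 0.0170). Zfp521, an inhibitor of Ebf1, rose 3.98-fold there, from 8.43 and 8.85 to 10.49 and 10.77 (limma adjusted p = 0.00579), and a dimmer probe did not pass. The other 2 that rose there, named after their values were seen, were Ddit3, the gene of CHOP, a dominant-negative partner of the C/EBP factors (2.25-fold, limma adjusted p = 0.00902), and Nr2f2, the gene of the nuclear receptor COUP-TFII (2.28-fold, limma adjusted p = 0.0111).

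The list of mature adipocyte products, which also holds the receptor genes Adipor1 and Adipor2, ranged from near background to bright. Adipor2 was its brightest gene on every array, at 14.70 to 15.56. Of the 18 genes, 9 were not well above background on any array, among them Adipoq (adiponectin), Lep (leptin), Cfd (adipsin) and Retn (resistin). In TIA1 KO MEF 1 of the 18 fell and none rose, whereas 2 rose and none fell in the TIAR knockout. Aoc3, a semicarbazide-sensitive amine oxidase, rose 22.9-fold in TIAR KO MEF, from 7.31 and 7.23 in WT MEF, where 1 array was well above background, to 11.81 and 11.77 (limma adjusted p = 0.000210). A second Aoc3 probe did not pass (limma adjusted p = 0.710). Cox7a1 rose 2.76-fold in TIAR KO MEF (8.01 and 7.95 to 9.37 and 9.52, limma adjusted p = 0.00518), and Slc2a4, the insulin-responsive glucose transporter, fell at least 1.42-fold in TIA1 KO MEF (limma adjusted p = 0.0430).

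The counts for TIA1 KO MEF depended on the arrays and their scaling. Before normalization the TIA1 KO arrays stood apart, with median intensities of 458 and 218, against 119 to 152 on the others. They had 16000 and 19920 probes well above background, against 23531 to 26254. With the scanner software's processed intensities no gene of these lists passed, and none did without either WT array, where the TIA1 KO pair alone gave the spread. With the spread taken from both knockouts, Vldlr, Lipa, Dgat2, Plin2, Ebf1 and Gata3 passed without either WT array, among the genes named for TIA1 KO MEF. When array medians were set equal instead, which moved the median of all probes to −0.68, genes that fell outnumbered those that rose in TIA1 KO MEF in each of the 7 lists. Then 2 lipase partners rose and 3 fell, 1 gene of fatty acid uptake rose and 7 fell, none of synthesis rose and 11 fell, and 1 of lipolysis rose and 4 fell. Of the regulators, 3 that promote adipogenesis rose and 9 fell, 1 that restrains it rose and 5 fell, and 4 genes of the mature adipocyte list fell. Beside these counts, 16041 of all probes passed in TIA1 KO MEF with equal medians, only 11.6% of them upward. This share applies to every later count with equal medians in TIA1 KO MEF. In the log2 table of the authors, 2 lipase partners, 1 gene of fatty acid uptake, 1 of lipolysis, 2 regulators that promote adipogenesis and 1 that restrains it rose in TIA1 KO MEF, and no gene of the 7 lists fell. No gene of synthesis passed there, and Lrp1, Fabp3, Slc27a1, Dgat2, Fads1, Fads2, Plin4, Wnt10b and Slc2a4 lost the call. Of all probes, 1309 passed with the authors' values, 66.5% of them upward. Without the loess step 1 gene of fatty acid uptake rose and none fell, 1 of synthesis rose and 1 fell, and 1 of lipolysis rose. Of all probes, 1511 passed without that step, 64.3% of them upward. With equal medians the differences of Lrp1, Fads1, Fads2 and Plin4 were below 0, and Klf4 (0.04), Plin2 (0.18), Slc27a3 (0.24) and Wnt10b (0.72) no longer passed. With equal medians in TIAR KO MEF, 1 gene of fatty acid uptake rose and 4 fell, none of synthesis rose and 2 fell, 3 regulators that promote adipogenesis rose and 4 fell, and 2 that restrain it rose and 2 fell. Of all probes, 4179 passed in TIAR KO MEF with equal medians, 33.6% of them upward. Scd2 lost its call there with equal medians, and Scd2, Angptl4 and Klf2 lost theirs with the processed intensities.

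The probes most like Lpl and Pparg were sought by the distance between their log2 values on the 6 arrays after subtracting each probe's mean (root mean square). Nearest to Lpl, of 25306 probes, were Thy1 (0.38), Aldh1a1 (0.63), Upk3b (0.65), a transcript of the gene 0610040B09Rik (0.81) and Isyna1 (0.83). Thy1, a surface glycoprotein of fibroblasts, read 6.63 and 6.98 on the WT, 7.11 and 7.48 on the TIA1 KO and 14.84 and 14.74 on the TIAR KO arrays, so that like Lpl it was high on the TIAR KO arrays alone. Nearest to Pparg, of 25307 probes, were St6galnac2 (0.18), Cbr3 (0.18), Ckb (0.19), Adgrg6 (0.19) and Il17d (0.19). These showed the same order as Pparg, with Cbr3 at 9.88 and 10.08 (WT), 11.77 and 11.77 (TIAR KO) and 13.67 and 13.87 (TIA1 KO). Both sets of probes were picked for this likeness on the same arrays, so the shared pattern is no separate result.

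**Figure D4:**
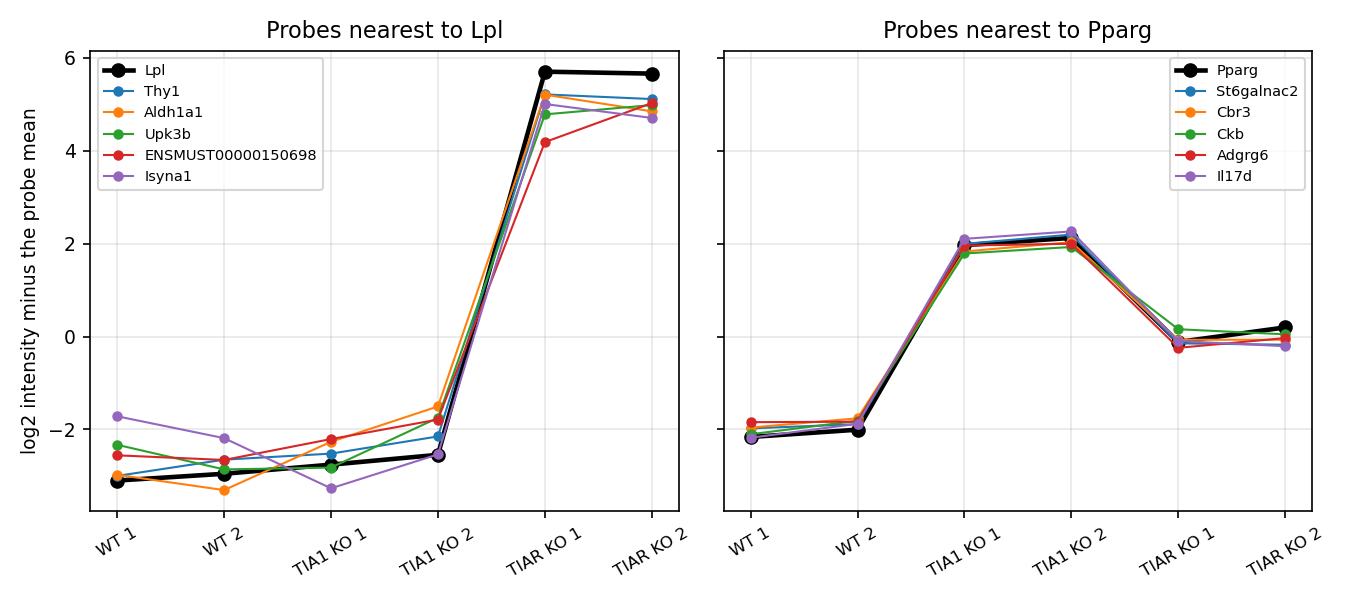
Log2 intensity minus each probe's mean (vertical axis) on the 6 arrays (horizontal axis) for Lpl (left) and Pparg (right), in black, and for the 5 probes nearest to each, in colour. The Lpl panel shows 1 step at the TIAR KO arrays, and the Pparg panel shows an upper level at the TIA1 KO arrays and an intermediate one at the TIAR KO arrays.

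The cell type on the label was checked with markers of MEF and of other cells that a culture could hold. Of 12 fibroblast markers, 7 rose in the TIA1 knockout and 9 in the TIAR knockout, and none fell, whereas 5 rose and 1 fell in the TIA1 knockout with equal array medians. In WT MEF 7 of the 12 were well above background on both arrays, among them Vim and Fn1, whereas Pdgfra, Postn and Lum were near background on both. Their summed intensity was 533680 and 567306 for WT, 1315037 and 1289995 for TIA1 KO and 1392948 and 1421037 for TIAR KO, and the probe of S100a4 gave the largest part of it on both WT arrays. Pdgfra read 6.37 and 6.40 on the WT, 10.05 and 10.23 on the TIA1 KO and 11.68 and 11.51 on the TIAR KO arrays, at least 9.52-fold (limma adjusted p = 0.00524) and at least 26.1-fold higher (limma adjusted p = 0.000176). Against WT, the 12 markers had a median difference of 2.28 for TIA1 KO MEF, where Pparg gave 4.13 and the brightest Lpl probe 0.37. For TIAR KO MEF their median was 3.01, where Pparg gave 2.12 and that Lpl probe 8.70. The second Lpl probe differed from WT by 1.80 for TIA1 KO and by 6.38 for TIAR KO. The part of the fibroblast markers in the result was not tested.

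Macrophages express Lpl, Cd36 and Pparg, and 13 of their markers were read. Of these, Ptprc, Emr1, Lyz2, Mrc1, Msr1 and Spi1 were near background on all 6 arrays. Itgam and Tyrobp rose in TIA1 KO MEF, Aif1 and Cd14 fell in TIAR KO MEF, and the summed intensity was 12160 and 11480 for WT, 22366 and 19898 for TIA1 KO and 10702 and 10744 for TIAR KO. Both rises in TIA1 KO MEF were lost, and 1 of the 13 markers fell, without the loess step and in the authors' log2 table, and equal array medians gave 1 that rose and 3 that fell. The largest part of that sum came from the probe of Cd14 in WT and of Itgam in both knockouts, and intensities of different probes do not rank transcript levels. None of 9 endothelial markers passed in either knockout. Of 7 skeletal muscle markers, Acta1 rose in both knockouts and Des in TIAR KO MEF, with Myod1, Myog and Myf5 near background throughout. Of 6 epithelial markers, Krt8 rose in both and Krt18 and Cdh1 in TIAR KO MEF, and without the loess step, with equal array medians or in the authors' table none rose in TIA1 KO MEF.

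**Figure D5:**
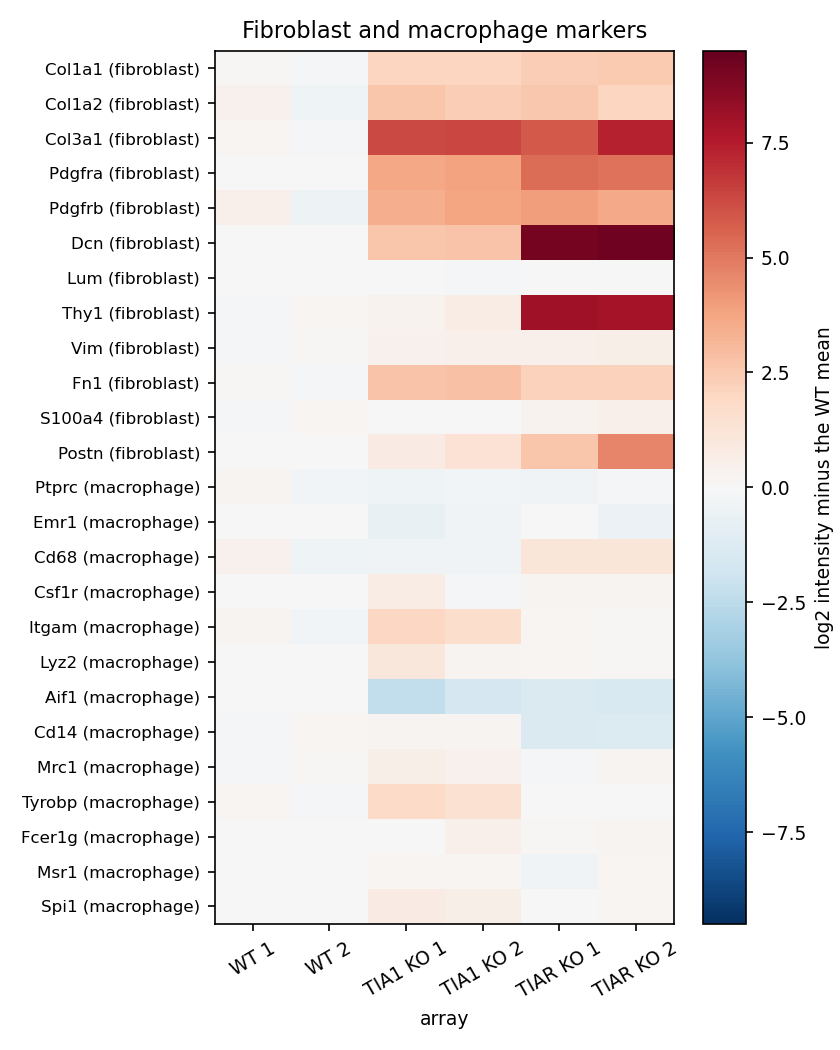
Log2 intensity minus the WT mean (colour) of 12 fibroblast and 13 macrophage markers (rows) on the 6 arrays (columns). The fibroblast markers Dcn and Thy1 are darkest on the TIAR KO arrays, and Ptprc, Emr1 and Msr1 stay pale on all arrays.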

How the data were processed

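RNA of 6 MEF cultures (2 WT, 2 TIA1 KO, 2 TIAR KO) was measured on 1-colour Agilent arrays. The authors deposited the intensity of every spot from Agilent Feature Extraction 10.7.3.1, not normalized between arrays, and a table of normalized log2 values made with limma per the submitters' notes. Following the study's methods, which name a loess and a quantile step but not the kind of loess, the mean intensity was corrected for the median local background with normexp (offset 50), taken to log2, normalized by 1 pass of cyclic loess, a choice made here, and quantile normalized. The global normalization that the methods also name was not applied. Control and outlier spots were dropped and spots of a probe averaged. The deposited log2 table served as an alternative. Each comparison was fitted on its own 4 arrays with limma 3.58.1 in R 4.3.3, without covariates, with Benjamini-Hochberg adjustment over 55681 probes. Calls needed a fold change over 2 at an adjusted p below 0.05. The fit was tested on simulated data.

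The number of arrays limits the precision. Probes well above background numbered 16000 to 26254 per array, at least 50% of a probe's spots being rated so, and none was left out for being dim. Names came from the files and, for 27235 probes, from RefSeq (2838 with another symbol). A gene was read from its brightest probe. Named beside the 9 genes were, per list and comparison, up to 4 called genes with the largest change whose brighter group exceeded background on each array. The genes, lists and tests were chosen with earlier results of these data known. Alternatives were other scalings, filters and fits, the replicate number as a block, and leaving out each array.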

Additional observations from a re-analysis of the deposited data

Results flagged for a closer look

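In 2 genes the knockouts differed from WT in opposite directions, and the difference between TIAR KO and TIA1 KO MEF itself passed the test. Slc27a3 differed by −3.29 on the log2 scale between TIAR KO and TIA1 KO MEF (limma adjusted p = 0.0083), where TIA1 KO was 1.61 above WT and TIAR KO stood at −1.68. Wnt10b had a measured difference of −3.96 (limma adjusted p = 0.00617), with a lower limit of 13.9-fold for the fall from TIA1 KO because the probe was near background on the TIAR KO arrays, and was 1.67 above WT in TIA1 KO MEF. With equal array medians the rise in TIA1 KO MEF passed for neither gene (0.24 for Slc27a3 and 0.72 for Wnt10b), and without either TIAR KO array no probe passed between the knockouts.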

How the results depend on the processing

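For the 9 genes in TIA1 KO MEF, the count of 1 called gene became 0 with the processed signal scaled to its 75th percentile, 5 when array medians were set equal (Pparg higher; Cebpb, Cebpd, Scd1 and Pnpla2 lower), and 2 (Pparg and Cebpb) with only probes well above background, all 3 groups fitted together, an intensity trend in eBayes, or the mean of all probes of a gene. Leaving out 1 array gave 0 to 2, with 0 without either WT array, and 1 (Pparg) without either when all 3 groups gave the spread (954 and 933 of all probes), an alternative chosen after seeing the data. Pparg itself gave 4.82 with the processed signal (limma adjusted p = 0.0529) and 2.97 under median scaling. The processed signal called 0 of all probes in that comparison, with 27765 at an unadjusted p under 0.05, and median scaling called 16041, of which 11.6% were higher, against 1969 and 61.6%. Without WT replicate 1 or 2, 0 probes were called, with 7202 and 7415 at an unadjusted p under 0.05, and without TIA1 KO replicate 1 or 2, 3068 and 10735 were. The processed signal and median scaling shifted the median of all probes to 1.98 and −0.68. The causes were not tested.

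Testing a fold change above 2 itself called 1016 of all probes in TIAR KO MEF, against 3206, and 440 in TIA1 KO MEF. Fitting all 3 groups together called 3986 in TIA1 KO MEF. Between the knockouts, where the count of the 9 genes is a description because TIAR KO values chose them, the count of 2 (Lpl and Pparg) became 1 (Lpl) with the processed signal and when a fold change above 2 was tested itself, and 3 under median scaling (Lpl, Cebpd and Fabp4, without Pparg), and leaving out 1 array gave 0 to 3, with 0 without either TIAR KO array (6318 and 6402 at an unadjusted p under 0.05).

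Arrays with the same replicate number were not treated as pairs in the main fit. Their deviations from the group means correlated by 0.0179 for WT and TIAR KO, 0.280 for WT and TIA1 KO, and −0.0735 for both knockouts. Whether they shared more than the number was not tested. The replicate block left 1 of the 9 genes called in TIA1 KO MEF (671 of all probes there and 3308 in TIAR KO MEF) and 0 between the knockouts (0 of all probes, with 10684 at an unadjusted p under 0.05).

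The differences of TIA1 KO from WT MEF that changed sign were those of Cd36 (3.03, processed signal), of Lpl (−0.41 without loess, −0.46 in the authors' table), of Cebpa (−0.23 without TIA1 KO replicate 2, and between −0.23 and 0.83 when 1 array was left out) and, under median scaling, of Lpl (−0.75), Cebpd (−1.24), Fabp4 (−1.12), Scd1 (−1.21), Lrp1 (−0.25), Fads2 (−0.28), Fads1 (−0.47) and Plin4 (−0.18). Of the other tested values of single genes in TIA1 KO MEF, 304 kept direction and call status, 124 lost the call and 7 gained it (6 of Cebpb and 1 of Pnpla2). The 304 include genes not called in the main analysis that stayed uncalled, so they do not count calls kept. In TIAR KO MEF, where only called genes were tested, 284 kept direction and call and 20 lost the call.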
